A study of Mus musculus with 20 samples.

Results

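The 10 genes described here code for enzymes and transporters of glycolysis and lactate metabolism, and are 10 of the 23260 genes in the deposited table. They were chosen by name, as the members of the pathway listed for photoreceptors and progenitors: the hexokinases Hk1 and Hk2, the aldolases Aldoa and Aldoc, Pgk1, Pkm, the lactate dehydrogenase subunits Ldha and Ldhb, and the transporters Slc2a1 and Slc16a1. All 10 were found in the table, with between 4415 UMIs (Hk2) and 373082 UMIs (Ldha) over 79009 cells. UMIs, the molecules counted by their barcodes, were summed per library and cell type, and levels are given as TMM-scaled CPM (counts scaled to a common library total).

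The cells came from retinal explants of wild-type CD1 mice, electroporated with a construct and with GFP-positive cells isolated, in 20 libraries. Control explants received a GFP control construct, and the others received MEIS1, MEIS2 or an equal mixture of both (the combination), homeobox transcription factors that the study overexpressed to ask how they bear on the timing and making of retinal neurons. Each stated age, postnatal day 2 (P2) and postnatal day 5 (P5), had 4 control libraries and 2 each with MEIS1, MEIS2 and the combination. All groups were electroporated and kept as explants. The labels do not tie libraries to separate animals or cultures, so that the p-values measure the spread between these libraries, which may be technical. The series text names other factors (NR2F1 and NR2F2) in a pCAGIG plasmid and gives 2 or 5 days of treatment where the sample labels give an age, and the treatment labels name MEIS1 for every single construct at P2 and MEIS2 for every one at P5. The sample titles were followed.

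Glycolysis splits glucose into pyruvate. Slc2a1 brings glucose in, hexokinase traps it, aldolase splits the sugar, Pgk1 and Pkm each make ATP, and lactate dehydrogenase turns pyruvate into lactate, which Slc16a1 carries across the membrane. Photoreceptors are known for aerobic glycolysis, the making of lactate while oxygen is present, and glia and progenitors of the retina also use glycolysis. The A subunit of lactate dehydrogenase is generally linked to lactate production, and the B subunit to its use.

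Libraries held 1625 to 17739 cells and 2376875 to 141540352 UMIs. One library, P2 MEIS2 replicate 2, stood apart, with a median of 992 UMIs per cell against 2416 to 14199 in the others, 9.996% of its UMIs from Malat1, a nuclear RNA (2.53 to 4.41% in the others), and 0.415% mitochondrial UMIs (2.03 to 10.0% in the others). The 4 P5 libraries numbered 1 had the highest shares of mitochondrial UMIs. Pairs of libraries shared 752 cell barcodes in all, at most 0.876% of the smaller library. In 10 of 20 libraries the cell names start with another library's name, and P2 control 1 and P2 combination 2 start with a library of another group, so the affected results were also run with groups taken from the cell names. Cell types were those assigned by the authors: rods were 48.9% of the cells, progenitors 14.96%, neurogenic cells 11.7%, amacrine cells 17.2% and cones 1.07%. With the ages together, 6 of 7 rod markers were highest in rods, and all 6 cone markers and all 6 amacrine markers in the type they mark. Within an age this did not always hold. At P2 the mean of the rod marker Sag was 1592 CPM in cones and 626 CPM in rods. At P5 the mean of the cone marker Gngt2 was 648 CPM in cones and 1195 CPM in rods. Of the progenitor markers given here, 3 were highest in progenitors, and Sox2, Fgf15 and Sfrp2 in the few libraries with enough of the 221 cells labelled Müller glia. Of 5 Müller glia markers, 4 (Rlbp1, Glul, Apoe and Slc1a3) were highest in the authors' progenitors. Because the authors drew these types from the same expression data, p-values between types do not account for that choice.

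Rods differed from progenitors in all 10 genes at P2, and the isozymes of aldolase and of lactate dehydrogenase went opposite ways. In P2 controls Ldha was 7.24 times as high in rods as in progenitors, and Ldhb was 4.02 times lower. Of 10 genes, 3 were higher in rods (Ldha, Aldoa and Pkm) and 7 were lower (Hk1, Hk2, Aldoc, Pgk1, Ldhb, Slc2a1 and Slc16a1), each at an adjusted p under 0.05. All 10 were thus called, in a comparison in which 60.2% of 14918 genes were called. In P5 controls 4 were higher in rods, with Hk2 added to Ldha, Aldoa and Pkm, 5 were lower and Hk1 was not called, so that 9 of 10 were called against 69.3% of all genes. These tests used edgeR's quasi-likelihood test with the library as a block and Benjamini-Hochberg adjustment over all genes. Where not stated otherwise, the adjusted p-values below come from the same test and adjustment. Comparisons of ages or constructs within a type had no block, and the isozyme shares had exact tests adjusted over 9. As a median over the 10 genes, the log2 fold change was -1.50 at P2 and -0.36 at P5, against 0.0025 and 0.095 over all genes tested. The plot of the differences shows both ages side by side.

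**Figure D1:**
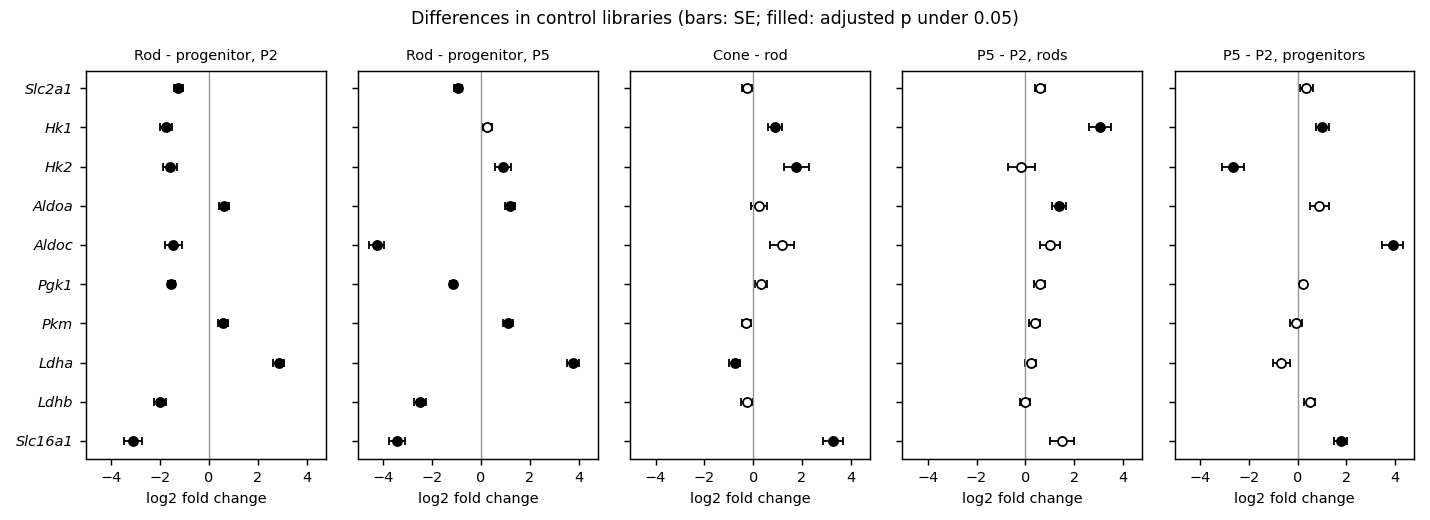
Log2 fold changes of the 10 genes (x axis) in 5 comparisons of control libraries, with the SE as bars and filled points where the adjusted p was under 0.05. Ldha lay far to the right in both comparisons of rods with progenitors (2.86 and 3.78), and Aldoc and Slc16a1 far to the left at P5 (-4.28 and -3.45).

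Glucose entry was represented by Slc2a1 (GLUT1), on chromosome 4 (119108711 to 119137983, mm10, plus strand). Its level in P2 progenitors was 105.4, 101.1, 72.9 and 95.3 CPM in control libraries 1 to 4, and in rods of the same libraries 43.4, 47.9, 35.9 and 35.8 CPM. Every rod value lay below every progenitor value. The fitted difference was -1.25 on the log2 scale (SE 0.168, adjusted p = 9.17e-07) at P2 and -0.95 (SE 0.165, adjusted p = 2.06e-05) at P5, where it was lower in rods in 4 of 4 libraries. Slc2a1 was also higher in rods than in amacrine cells, by 0.86 (SE 0.178) at P2 and 1.91 (SE 0.205) at P5, with adjusted p = 3.08e-04 and 3.22e-08.

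The 2 hexokinases, which phosphorylate glucose on entry, had different courses. Hk1 (chromosome 10, 62268855 to 62379908, minus strand) is the widespread form, and Hk2 (chromosome 6, 82725025 to 82774454, minus strand) is the form known in rods of the adult retina and in growing cells. At P2 progenitors had Hk1 at 33.6, 47.7, 19.4 and 35.8 CPM, and rods had 13.6, 16.5, 3.61 and 7.97 CPM. At P5 progenitors had 68.4, 71.3, 48.0 and 84.2 CPM, and rods 90.6, 126.4, 40.0 and 83.8 CPM. Rods therefore lay below progenitors in all 4 libraries at P2, and the groups crossed at P5, where rods were higher in 2 of 4 libraries. The rod minus progenitor difference of Hk1 moved by 2.00 on the log2 scale between the ages (SE 0.305, adjusted p = 8.52e-05). In that test of the change in difference 24.8% of all genes and 4 of the 10 members were called, 3 towards rods and 1 (Aldoc) towards progenitors.

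Hk2 in P2 progenitors was 6.88, 13.8, 23.4 and 19.8 CPM, and in P2 rods 2.01, 4.39, 7.01 and 9.62 CPM. At P5 progenitors had 4.08, 1.37, 2.92 and 1.91 CPM and rods 5.29, 8.45, 2.69 and 2.999 CPM. Hk2 was thus lower in rods at P2 (-1.60, SE 0.275, adjusted p = 2.72e-05) and higher in rods in 3 of 4 libraries at P5 (0.90, SE 0.333, adjusted p = 0.0199). The P5 call was lost without P5 control 2 (0.17, adjusted p = 0.595), without the cells of highest UMI count (0.56, adjusted p = 0.213) and without the library block (0.93, adjusted p = 0.163). The shift of the difference between ages was 2.50 (SE 0.430, adjusted p = 2.62e-04), and it ranged from 1.78 to 2.88 over the alternatives. Hk1 overlaps the antisense gene Hk1os, which had 1240 UMIs of its own against 27019 for Hk1.

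The aldolases split the sugar bisphosphate, Aldoa being the widespread form and Aldoc the form known in brain and glia. Aldoa (chromosome 7, 126795234 to 126800751, minus strand) stood at 241, 179.5, 147 and 254 CPM in P2 rods and at 115, 118, 78.7 and 231.8 CPM in P2 progenitors. It was higher in rods in all 4 libraries, by 0.62 (SE 0.205, adjusted p = 0.012), and the P5 difference was 1.18 (SE 0.206, adjusted p = 2.33e-05). The P2 call was lost without P2 control 1 (0.44, adjusted p = 0.131) and without P2 control 3 (0.59, adjusted p = 0.0526), and also with groups from the start of the cell name (0.42, adjusted p = 0.0724) and without the library block (0.54, adjusted p = 0.176). Another row named Aldoa in the table held 531 UMIs and is not included.

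Aldoc (chromosome 11, 78322968 to 78327781, plus strand) stood opposite. P5 progenitors had 103, 162.5, 85.6 and 142 CPM, and P5 rods 9.13, 5.15, 4.71 and 5.40 CPM, so that no rod value came near a progenitor value. The difference was -4.28 (SE 0.310, adjusted p = 2.00e-11) at P5 and -1.46 (SE 0.346, adjusted p = 9.11e-04) at P2, and the change between the ages was -2.83 (SE 0.463, adjusted p = 1.66e-04).

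Pgk1, phosphoglycerate kinase (chromosome X, 106187100 to 106203699, plus strand), gives the first ATP of the pathway. It was 178.0, 179.6, 155.9 and 158.5 CPM in P2 progenitors and 63.3, 56.0, 52.5 and 69.1 CPM in P2 rods. These ranges do not overlap, nor do those at P5, where progenitors had 177.9 to 206.7 CPM and rods 80.3 to 99.97 CPM. The differences were -1.55 (SE 0.138, adjusted p = 1.66e-09) at P2 and -1.15 (SE 0.136, adjusted p = 8.80e-08) at P5. Pkm, pyruvate kinase (chromosome 9, 59656368 to 59679375, plus strand), went the other way by a smaller margin: rods were higher in 4 of 4 libraries at each age, by 0.58 (SE 0.191, adjusted p = 0.0123) at P2 and 1.10 (SE 0.194, adjusted p = 2.63e-05) at P5. The P2 difference of Pkm was 0.56 and no longer called without P2 control 3 (adjusted p = 0.0514) or without P2 control 4 (adjusted p = 0.0511), and it was 0.57 without the library block (adjusted p = 0.148).

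The regions upstream of the 2 lactate dehydrogenase genes are shown because their levels went opposite ways. Ldha lies on chromosome 7 (46841475 to 46855627, plus strand) and Ldhb on chromosome 6 (142490249 to 142507957, minus strand). The 250 bases before a RefSeq start of each (GRCm38.p6, from the RefSeq promoter table), with Slc16a1 for comparison, overlap no annotated exon. Capitals mark ACGTG, the core letters of the hypoxia response element, and GCGTG, its variant, on either strand. CACGTG, the E-box, holds ACGTG on both strands.
Ldha, chr7:46845554-46845803 (plus strand): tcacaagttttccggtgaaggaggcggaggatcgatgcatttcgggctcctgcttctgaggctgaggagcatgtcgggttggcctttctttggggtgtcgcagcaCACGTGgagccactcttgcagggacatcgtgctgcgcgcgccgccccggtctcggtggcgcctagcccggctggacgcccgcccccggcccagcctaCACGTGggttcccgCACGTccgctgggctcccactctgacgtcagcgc
Ldhb, chr6:142507958-142508207 (minus strand): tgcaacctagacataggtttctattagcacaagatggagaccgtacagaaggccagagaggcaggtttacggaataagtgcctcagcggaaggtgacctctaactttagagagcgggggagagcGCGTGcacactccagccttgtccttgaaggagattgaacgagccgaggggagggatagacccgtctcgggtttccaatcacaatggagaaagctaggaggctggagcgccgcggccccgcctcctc
Slc16a1, chr3:104638414-104638663 (plus strand): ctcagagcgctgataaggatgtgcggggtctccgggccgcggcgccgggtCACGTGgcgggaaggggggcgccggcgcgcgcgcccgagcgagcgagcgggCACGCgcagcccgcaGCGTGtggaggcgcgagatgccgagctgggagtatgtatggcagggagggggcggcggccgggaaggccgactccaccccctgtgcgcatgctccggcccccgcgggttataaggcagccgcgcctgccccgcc
This Ldha window held 5 matches to ACGTG, counted on both strands, of which CACGTG gave 2 places, and the Ldhb window held none and 1 match to GCGTG. The window of the other RefSeq start of Ldha held no ACGTG. Over the 16 windows of the 10 genes, 8 held ACGTG, 7 held GCGTG, 2 held CACGTG and 2 held TAATCC, a core letter sequence of photoreceptor homeobox sites. Over 32851 windows of the same length, the shares were 16.6%, 28.2%, 6.02% and 6.25%. Some of the 10 genes have more than 1 window, and Aldoa has overlapping windows that share 1 ACGTG match, counted in each. A match describes letters in this window and is not a bound site.

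Ldha in P2 rods was 1230.35, 1116, 1163 and 1627 CPM in libraries 1 to 4, and in progenitors of those libraries 176, 141, 127 and 255.5 CPM. At P5 rods had 1138, 1343, 1727 and 1616 CPM and progenitors 137.6, 86.3, 115 and 97.5 CPM. Rods lay above progenitors in all 8 libraries, and no progenitor value reached the lowest rod value. The fitted difference was 2.86 (SE 0.239, adjusted p = 5.64e-10) at P2 and 3.78 (SE 0.250, adjusted p = 4.43e-12) at P5. Ldhb in P2 progenitors was 247.5, 287.7, 215.5 and 364.8 CPM and in P2 rods 69.1, 62.2, 65.5 and 91.4 CPM. At P5 progenitors had 344 to 429.8 CPM and rods 42.3 to 84.8 CPM, again without overlap, with differences of -2.01 (SE 0.260, adjusted p = 5.29e-07) and -2.50 (SE 0.264, adjusted p = 1.32e-08).

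As a check on free RNA, genes that rods express were compared between progenitors and rods of each library. At P5 the progenitor level was 0.530 to 3.52% of the rod level for Nrl and 1.01 to 3.76% for Sag, and 6.04 to 12.1% for Ldha. At P2 it was 4.03 to 7.57% for Nrl, 6.85 to 12.6% for Sag and 10.9 to 15.7% for Ldha. The part of free RNA in the progenitor levels of Ldha was not tested.

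Slc16a1 (MCT1, a lactate and pyruvate carrier) lies on chromosome 3 (104638668 to 104658462, plus strand). P2 progenitors had 14.2, 10.9, 13.1 and 11.5 CPM and P2 rods 1.85, 1.82, 1.00 and 1.20 CPM. At P5 progenitors had 36.5, 56.8, 26.6 and 48.5 CPM and rods 9.20, 3.09, 2.02 and 2.40 CPM. The groups did not overlap at either age. The differences were -3.12 (SE 0.367, adjusted p = 1.21e-07) and -3.45 (SE 0.323, adjusted p = 1.85e-09). P5 control 1, the highest of the P5 rods, is among the libraries with the highest mitochondrial share. Its part in the difference was not tested, and without it the difference was -4.10.

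**Figure D2:**
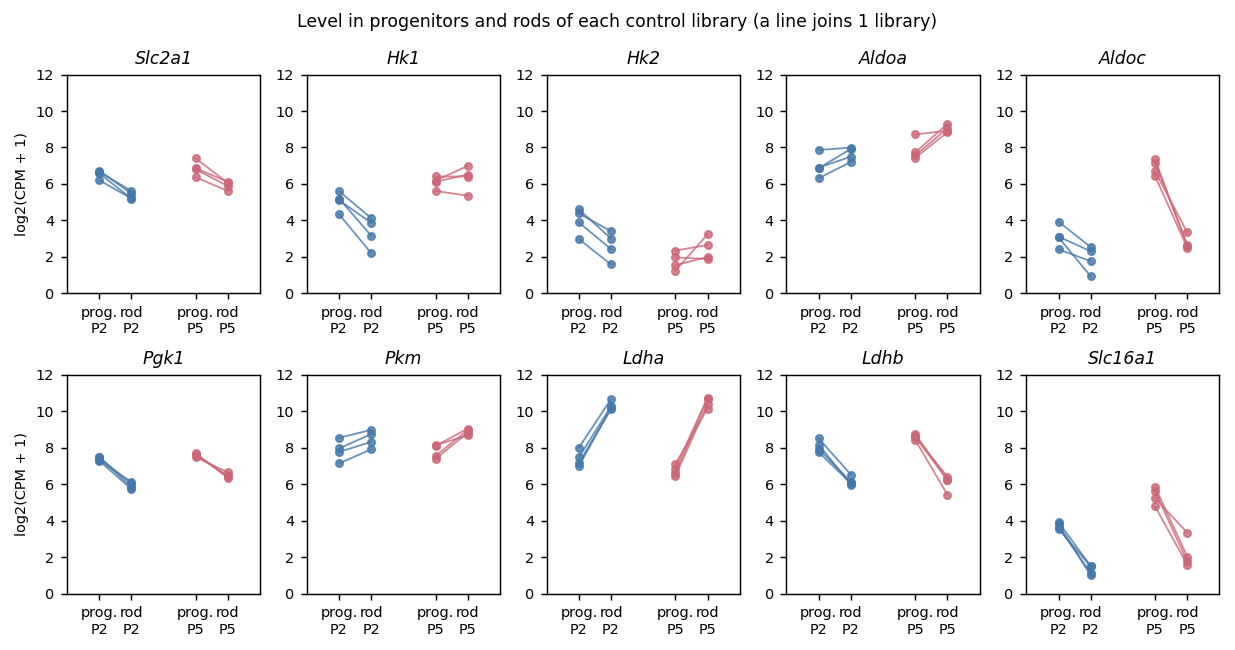
Level of each gene, as log2(CPM + 1), in progenitors and rods of the 8 control libraries. Each line joins the 2 types within 1 library, P2 in blue and P5 in red. The lines of Ldha rise to rods in all 8 libraries, those of Ldhb, Pgk1, Slc2a1, Aldoc and Slc16a1 fall in all 8, and those of Hk1 and Hk2 fall at P2 and are mixed at P5.

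The pairs of isozymes were also read as shares, which do not depend on the scaling between types. Ldhb made up 58.4 to 67.1% of the UMIs of Ldha and Ldhb in P2 progenitors and 73.6 to 83.3% in P5 progenitors, and 5.28 to 5.33% in P2 rods and 2.55 to 6.94% in P5 rods. The difference between rods and progenitors was -64.9 percentage points (SD 9.90, 8 of 8 libraries). In progenitors the Ldhb share was 16.2 points higher at P5 than at P2, with all 4 P5 libraries above all P2 libraries. Aldoc made up 5.21 to 6.23% of the 2 aldolases in P2 progenitors, 19.8 to 43.5% in P5 progenitors, and at most 1.86% in rods, a rod minus progenitor difference of -19.1 points (SD 17.4, 8 of 8 libraries). Hk2 fell from 32.5% ± 16.8 (SD, n = 4) of the hexokinase UMIs to 3.87% ± 2.10 (SD, n = 4) in progenitors, and from 38.7% ± 25.7 (SD, n = 4) to 5.38% ± 1.34 (SD, n = 4) in rods.

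Of 9 such tests, exact and two-sided, 6 were called after Benjamini-Hochberg adjustment over the 9. For the rod minus progenitor shares of Ldhb and Aldoc, the exact p by sign flips was 0.00781, the smallest that 8 libraries allow, with an adjusted p of 0.0352. For the 4 differences between ages that passed, the exact permutation p was 0.0286, the smallest that 4 against 4 allow, with an adjusted p of 0.0429. The shares of Ldhb and Aldoc in rods between ages (-0.591 and -0.221 points) and of Hk2 between rods and progenitors (3.85 points, SD 7.68, 5 of 8 libraries) did not pass. With any 1 library left out 0 of 9 passed, and the 6 tests had adjusted p-values of 0.0514 to 0.129. The differences then ranged from -66.6 to -63.05 points for Ldhb and -21.3 to -15.7 for Aldoc between types, and between ages from 14.5 to 17.98 for Ldhb and 26.2 to 34.1 for Aldoc in progenitors and, for Hk2, from -33.75 to -21.2 in progenitors and -41.9 to -24.1 in rods. With same-numbered libraries of the ages taken as pairs, 4 pairs allow no exact p under 0.125, and the 4 differences between ages had adjusted p = 0.1875 by exact sign flips, so that 2 of 9 passed. The plot of shares shows the same values for every library.

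**Figure D3:**
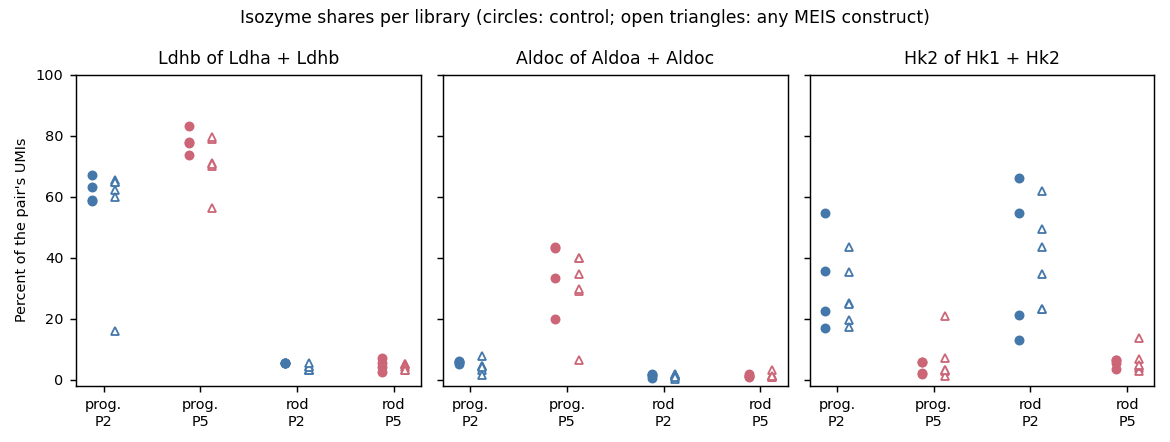
Share of Ldhb, Aldoc and Hk2 among the UMIs of their isozyme pair, in percent, per library, in progenitors and rods at P2 (blue) and P5 (red). Filled circles are controls and open triangles are libraries with any MEIS construct. The Ldhb share of progenitors lies between 58.4 and 83.3% in controls and that of rods lies under 7%, and in controls the Hk2 share is lower at P5 than at P2 in both types. P5 combination replicate 1 lies at 20.9% in progenitors and 13.5% in rods, above P2 control 1 (17.0% and 12.8%).

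Between P2 and P5, in control rods, 2 of the 10 genes rose and none fell, Hk1 by 3.04 (SE 0.456, adjusted p = 7.02e-04) and Aldoa by 1.39 (SE 0.286, adjusted p = 4.30e-03), against 13.2% of all genes called. Hk1 stood at 10.4 ± 5.76 CPM (SD, n = 4) in P2 rods and 85.2 ± 35.5 CPM (SD, n = 4) in P5 rods, and all P5 values lay above all P2 values. Slc16a1 was 1.49 higher in P5 rods (SE 0.487, adjusted p = 0.0516) and Slc2a1 0.59 higher (SE 0.203, adjusted p = 0.0639), both just short of the threshold. With DESeq2, 4 genes were called (Slc16a1 and Slc2a1 added), and 4 with the replicate block (Slc16a1 and Aldoc added). Without TMM factors Slc16a1 (1.555, adjusted p = 0.0432) and Slc2a1 (0.66, adjusted p = 0.0484) were added, and without mitochondrial genes Slc16a1 (1.51, adjusted p = 0.0475). With groups from the cell name Pgk1 (0.68, adjusted p = 0.0406) and Aldoc (1.37, adjusted p = 0.032) were added, and without P5 control 3 Slc16a1 (1.73, adjusted p = 0.0237). Over all genes DESeq2 called 2568 against 1949 in the main fit, with 1851 called without TMM factors and 2054 without mitochondrial genes. The numbers over all genes for the other settings are not given here, so these added calls do not set the members apart. Rod markers rose with age too: their summed level was 886 to 2375 CPM in P2 rods and 5238 to 9043 CPM in P5 rods, with none of the 7 at 0, and their part was not tested.

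In progenitors 3 of 10 genes rose and 1 fell, against 17.5% of all genes. Aldoc rose by 3.91 (SE 0.433, adjusted p = 2.48e-05), from 4.32 to 14.2 CPM in the P2 libraries to 85.6 to 162.5 CPM in the P5 libraries. Slc16a1 rose by 1.77 (SE 0.270, adjusted p = 3.80e-04) and Hk1 by 1.02 (SE 0.279, adjusted p = 0.019), and Hk2 fell by 2.65 (SE 0.439, adjusted p = 7.11e-04). The call of Hk1 was lost without P2 control 3 (0.84, adjusted p = 0.0669) and without P5 control 4 (0.90, adjusted p = 0.0593), and without P2 control 4 Aldoa was called (1.25, adjusted p = 0.0403). Glial markers moved with these changes. The 5 Müller glia markers summed to 1247 to 3656 CPM in P2 progenitors and 9055 to 19250.0 CPM in P5 progenitors, with none at 0, and Rlbp1 went from 132.7 to 410 CPM up to 1159 to 1876 CPM. In the same cells the 6 neurogenic markers summed to 873 to 1088 CPM at P2 and 135.5 to 521.7 CPM at P5, with none at 0, and the 6 cone markers to 121 to 160.2 CPM and 36.6 to 75.1 CPM, with 1 at 0 at P5 and Thrb at means of 27.3 and 30.65 CPM. The 7 rod markers summed to 73.5 to 191 CPM at P2 and 59.9 to 253 CPM at P5, the 6 amacrine markers to 40.7 to 107 CPM and 15.3 to 38.3 CPM, and the 6 bipolar markers to 220.6 to 465 CPM and 155.6 to 219 CPM. The part of these markers in the fall of Hk2 was not tested. Whether progenitors changed or cells of glial character entered the type cannot be told apart in these sums. Of 4 vascular markers, Kdr stood at 308 to 532 CPM at P2 and 602 to 811 CPM at P5, and the others stayed at or under 4.47 CPM. Markers of microglia, pigment epithelium, astrocytes and erythroid cells summed to at most 38.6 CPM in progenitors of any control library.

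Neurogenic cells, progenitors on the way to becoming neurons, also had 4 members called. Hk1 rose by 2.07 (SE 0.349, adjusted p = 7.27e-04) and Slc16a1 by 1.24 (SE 0.335, adjusted p = 0.0241), and Hk2 fell by 1.92 (SE 0.440, adjusted p = 8.26e-03). The fourth was Aldoc (adjusted p = 5.55e-04), which passed the low-count filter through the P5 libraries, so that its call and fitted fold support nothing. Over all genes 9.27% were called. The 5 Müller glia markers summed to 463 to 701 CPM at P2 and 2580.0 to 4529 CPM at P5 in these cells. The 7 progenitor markers summed to 215.8 to 314.6 CPM and 861.8 to 1623 CPM, and the 6 neurogenic markers to 957 to 2224 CPM and 625 to 948 CPM, with none of these at 0, and the part of all these markers was not tested. The Slc16a1 call was lost without P2 control 2 (1.16, adjusted p = 0.0691), P2 control 3 (1.17, adjusted p = 0.0634), P2 control 4 (1.16, adjusted p = 0.0669) or P5 control 2 (1.07, adjusted p = 0.0891), without all P5 libraries numbered 1 (1.25, adjusted p = 0.0536) and without the cells of highest UMI count (1.13, adjusted p = 0.0519), and without P5 control 2 Slc2a1 was called (0.72, adjusted p = 0.0381). Slc2a1 was also called with the replicate block (0.61, adjusted p = 0.0375) and without TMM factors (0.70, adjusted p = 0.0286), and Pgk1 with groups from the cell name (0.44, adjusted p = 0.0458). Aldoc in P2 neurogenic cells stood at 0 in control 3, which allows 3 UMIs or 1.46 CPM, and at no more than 1.01 CPM in the others, against 6.45, 24.1, 6.65 and 7.83 CPM at P5. In amacrine cells none of the 9 genes that passed the filter was called (Aldoc did not pass it), against 0.397% of all genes, and the smallest adjusted p was 0.287, for Hk2, at a difference of -1.94. At an unadjusted p under 0.05, 1 of the 9 genes and 1166 of 13097 genes were found, and DESeq2 also called 0 of them.

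Amacrine cells, inhibitory interneurons of the same libraries, gave another reference for rods. In P2 controls 5 genes were higher in rods and 5 lower, against 49.3% of all genes called, and in P5 controls 7 were higher and 1 lower, against 55.5%. Ldha was 2.54 higher (SE 0.237, adjusted p = 8.09e-09) at P2 and 3.58 higher (SE 0.252, adjusted p = 5.07e-11) at P5. Ldhb was 1.85 lower at P2 (SE 0.259) and 1.39 lower at P5 (SE 0.265), with adjusted p = 2.64e-06 and 9.36e-05. It was lower in 4 of 4 libraries at P2 and 3 of 4 at P5. In P5 control 1 it was 84.8 CPM in rods and 82.8 CPM in amacrine cells, and in P5 control 3 it was 73.4 and 361 CPM. Hk1 was lower in rods at P2 (-1.71, SE 0.231, adjusted p = 1.48e-06) and higher at P5 (1.05, SE 0.226, adjusted p = 3.61e-04). Aldoc was called higher in rods at both ages (2.06 and 1.91, SE 0.476 and 0.545), at levels under 10 CPM in both types, but it passed the low-count filter through other types. In amacrine cells it stood at 0 in P2 control 3 and P5 control 4, where 3 UMIs would be 0.878 and 2.68 CPM, and at no more than 2.33 CPM in the other control libraries. Hk2 (0.54, adjusted p = 0.272) and Slc16a1 (-0.69, adjusted p = 0.147) were not called at P5, and Slc16a1 was called without P5 control 1 (-1.10, adjusted p = 0.0419). The P2 calls of Slc16a1 (-1.12, adjusted p = 0.148) and Aldoc (1.81, adjusted p = 0.0784) were lost without P2 control 1, and that of Slc16a1 with groups from the cell name (-1.10, adjusted p = 0.07). Without the library block the P2 calls of Hk2 (-1.24, adjusted p = 0.0761) and Pkm (0.57, adjusted p = 0.173) were lost. The P2 call of Pkm was lost without P2 control 1 (0.54, adjusted p = 0.0784), P2 control 2 (0.46, adjusted p = 0.107) or P2 control 4 (0.57, adjusted p = 0.0555), and the P5 call of Pgk1 (0.46) without P5 control 1 (0.37, adjusted p = 0.0527) or P5 control 4 (0.37, adjusted p = 0.0861).

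Cones had enough cells in 6 control libraries, with 24 to 352 cones each, and were compared with rods of the same libraries. Because cones are few, both ages were fitted together, and each gene has 1 difference over both. Of 10 genes, 3 were higher in cones (Slc16a1, Hk2 and Hk1) and 1 lower (Ldha), against 15.9% of 11448 genes. Slc16a1 was higher by 3.26 (SE 0.400, adjusted p = 9.41e-06), and the cone levels were 17.7, 10.5, 25.3 and 16.4 CPM at P2 and 75.0 and 0 CPM at P5. The 0 came from P5 control 2, with 24 cones, where 3 UMIs would be 30.2 CPM. Rods of these libraries held Slc16a1 at 1.85, 1.82, 1.00 and 1.20 CPM at P2 and 9.20 and 3.09 CPM at P5. Slc16a1 thus passed the low-count filter through the cones, so that its call and fitted difference support nothing. Hk2 was 1.76 higher (SE 0.513, adjusted p = 0.0225), in 4 of 6 libraries, and stood at 0 in cones of P2 controls 3 and 4, where 3 UMIs would be 18.9 and 9.83 CPM. Its P2 mean was 5.31 CPM in cones and 5.76 CPM in rods. In P5 controls 1 and 2 it was 29.6 and 80.5 CPM in cones, against 5.29 and 8.45 CPM in rods. Aldoa, which was not called, had P2 means of 405 CPM in cones and 205 CPM in rods. In P5 controls 1 and 2 Aldoa was 185 and 241 CPM in cones, against 483 and 626 CPM in rods. Hk1 was 0.90 higher in cones (SE 0.288, adjusted p = 0.038), in 5 of 6 libraries. Ldha was 0.76 lower on the log2 scale (-0.76, SE 0.213, adjusted p = 0.017) in 6 of 6 libraries, at 698, 470.2, 1017 and 1218 CPM at P2 and 387 and 634 CPM at P5.

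Only Slc16a1 among the 4 was called in each of the 6 fits that left out 1 library. Because it passed the low-count filter through the cones, these calls add no support. Hk2 was not called without P2 control 1 (1.64, adjusted p = 0.101), P2 control 2 (1.75, adjusted p = 0.0702), P5 control 1 (1.47, adjusted p = 0.0857) or P5 control 2 (1.44, adjusted p = 0.0826). Ldha was not called without P2 control 1 (-0.79, adjusted p = 0.0566), P2 control 2 (-0.70, adjusted p = 0.0531) or P5 control 1 (-0.65, adjusted p = 0.0726). Hk1 was not called without P2 control 1 (0.95, adjusted p = 0.0944), P2 control 2 (0.95, adjusted p = 0.0673), P2 control 3 (0.71, adjusted p = 0.0565), P2 control 4 (0.79, adjusted p = 0.0675) or P5 control 2 (0.95, adjusted p = 0.0596), and Aldoc was called without P5 control 1 (1.60, adjusted p = 0.0326). The calls of Hk2 (1.56, adjusted p = 0.295), Ldha (-0.67, adjusted p = 0.335) and Hk1 (0.48, adjusted p = 0.842) were lost without the library block, that of Hk2 with DESeq2 (1.53, adjusted p = 0.0748) and that of Hk1 with at least 50 cells (0.79, adjusted p = 0.13). The rod markers summed to 2077 to 3053 CPM in P2 cones, with a mean of 2756 CPM against 1489 CPM in P2 rods, and the part of rod RNA in cone sums was not tested. Nrl, which marks rods, stood at 57.3 ± 21.0 CPM (SD, n = 4) in P2 cones and 325 ± 35.6 CPM (SD, n = 4) in P2 rods.

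Across the types, by their means, Ldha had the order rods, cones, neurogenic cells, amacrine cells and progenitors at P2, and rods, cones, neurogenic cells, bipolar cells, amacrine cells and progenitors at P5. The ranges of rods and cones overlapped at P2 and not at P5 (2 cone libraries), and the ranges of cones and neurogenic cells did not overlap at either age, while those of the types after them overlapped from each to the next. Ldhb ran the other way, from progenitors (279 ± 64.5 CPM at P2, SD, n = 4) to rods (72.0 ± 13.2 CPM) and cones (75.5 ± 50.4 CPM), and the ranges of these last 2 overlapped at P2. Among these types, Müller glia left out, Slc2a1 and Pgk1 were highest in progenitors at both ages, with no overlap with the next type, although for Pgk1 the cones of P2 control 4 (157 CPM) lay above the lowest P2 progenitors (155.9 CPM). Hk1 in P2 progenitors (34.1 ± 11.6 CPM, SD, n = 4) and amacrine cells (33.5 ± 7.93 CPM, SD, n = 4) did not differ beyond their spread, and at P5 its mean was highest in cones, with the ranges of all neighbouring types overlapping. Hk2 was highest in neurogenic cells at P2 (27.6 ± 12.9 CPM, SD, n = 4) and in cones at P5 (55.0 ± 36.0 CPM, SD, n = 2), and its P2 range overlapped that of progenitors. Aldoa in P2 cones (147 to 747 CPM) overlapped P2 rods (147 to 254 CPM), and at P5 it was highest in rods, without overlap with the next type. Pkm was highest in rods at both ages, with overlap. At P2 Aldoc in cones (median 6.83 CPM, with 29.5 CPM in control 4) overlapped progenitors (median 7.55 CPM), as did Slc16a1. At P5 Aldoc was highest in progenitors, without overlap with the next of these types, and Slc16a1 in progenitors lay between the 2 cone libraries (75.0 and 0 CPM). The 221 Müller glia reached 20 cells in 2 control libraries, 1 at each age, and were left out of these orders. In the P5 library they stood at 126.4 CPM for Slc2a1, 204 CPM for Pgk1 and 101 CPM for Aldoc, each within the range of P5 progenitors (81.5 to 168 CPM, 177.9 to 206.7 CPM and 85.6 to 162.5 CPM).

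**Figure D4:**
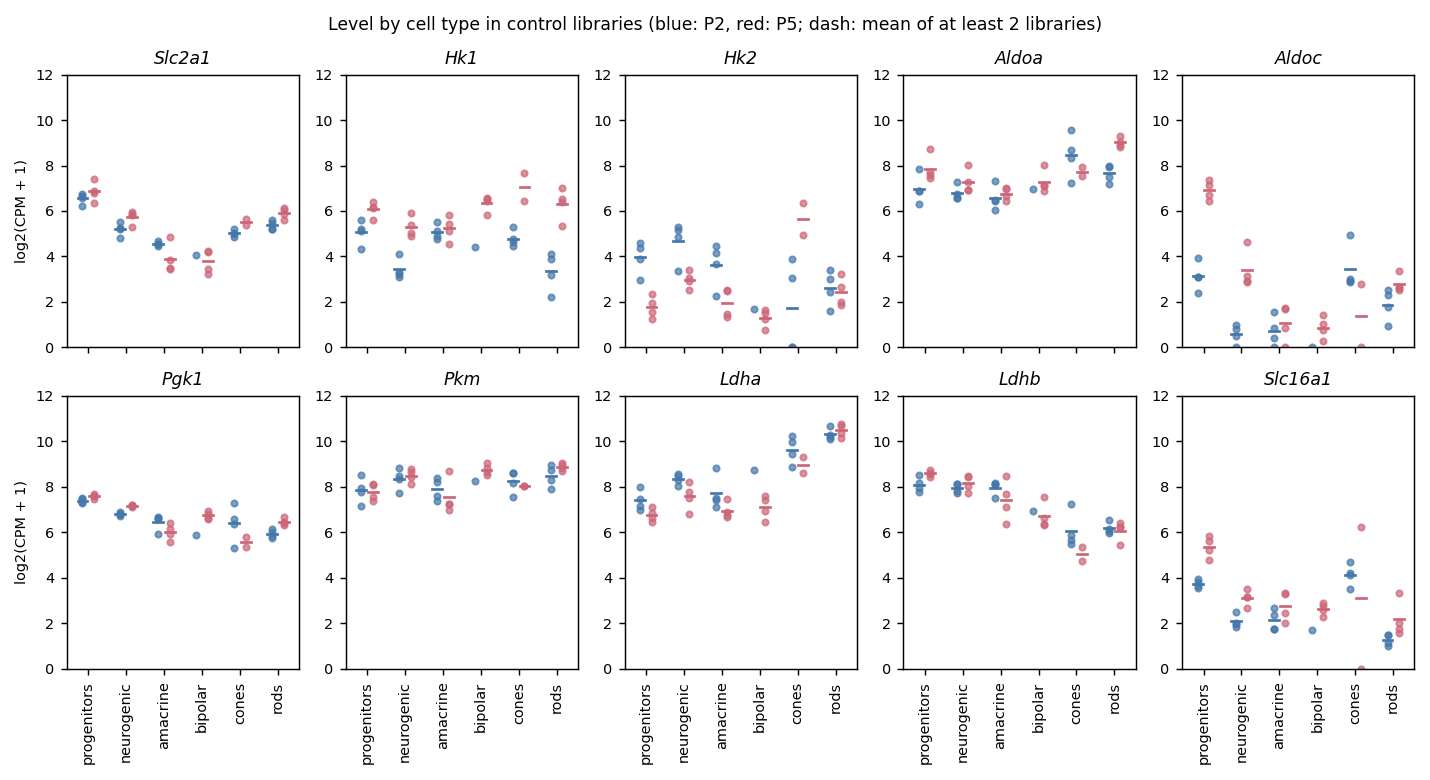
Level, as log2(CPM + 1), of each gene in 6 cell types of the control libraries, P2 in blue and P5 in red, with a dash at the mean of at least 2 libraries. By its mean Ldha is highest in rods and lowest in progenitors at both ages, and Aldoc in P5 progenitors lies above the other P5 types drawn. Müller glia are not drawn.

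As a description over 11 means of type and age, the log2 levels of Ldha and Ldhb had a Pearson correlation of -0.731 and those of Pgk1 and Ldhb 0.781. The means share libraries, and no p is given. Among 7307 genes with a mean of at least 20 CPM, the genes whose pattern was most like that of Ldha were Slc25a33 (0.979), Inhbb (0.972) and Spata1 (0.971), and for Ldhb Rgs2 (0.977), E130114P18Rik (0.966) and Tmeff2 (0.964). For Pgk1 they were Rexo2 (0.977), Tomm40 (0.974) and Txn2 (0.960), and for Slc16a1 Elmsan1 (0.950), Nrcam (0.915) and 9330182L06Rik (0.902). For Aldoc they were Slc27a1 (0.961), Dag1 (0.957) and Calu (0.950), for Aldoa Gorasp2 (0.953), Arl13b (0.934) and Tex264 (0.915), and for Slc2a1 Col4a5 (0.950), Sav1 (0.950) and Gm15417 (0.944). For Hk1 they were Fam168a (0.920), Pcyt1a (0.899) and Tmx2 (0.897), for Hk2 Pik3c2a (0.933) and Igf2bp2 (0.887), followed by the nonagouti gene (0.832), and for Pkm Abhd17a (0.944), C1qtnf12 (0.931) and Ghitm (0.929).

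Other genes of the pathway also went both ways. Of 16 further glycolysis genes, 4 were higher and 8 lower in rods than in progenitors at P2 (median -0.55) and 2 higher and 9 lower at P5 (median -0.54). Over all genes 60.2% were called at P2 and 69.3% at P5, which is the background for the 3 lists. Eno1 (enolase) was 3.28 lower at P2 and 3.85 lower at P5, on the log2 scale (-3.28, SE 0.231, and -3.85, SE 0.236), Pfkfb3 was -2.37 at P2 and -3.49 at P5 (SE 0.355 and 0.357), and Eno2, the enolase of neurons, was higher by 2.09 at P5 (SE 0.290). Of 17 genes of pyruvate entry and the TCA cycle, 1 was higher and 10 lower at P2, and 8 were higher and 6 lower at P5, with Mpc1, a subunit of the mitochondrial pyruvate carrier, at -0.79 and -1.31 (SE 0.182 and 0.184). Of 12 hypoxia targets 10 were tested: 6 were higher and 2 lower at P2, and 4 were higher and 2 lower at P5, with Ndrg1 up by 2.35 and 3.58 (SE 0.293 and 0.312) and Bhlhe40 at -3.74 and -5.25 (SE 0.740 and 0.573). Between ages in rods, 7 of 16 glycolysis genes rose and none fell, Gapdh by 0.95 (SE 0.204, adjusted p = 0.0056), Pfkl by 1.29 (SE 0.360, adjusted p = 0.0245), Slc16a7 by 1.77 (SE 0.498, adjusted p = 0.0254) and Eno1 by 0.92 (SE 0.247, adjusted p = 0.0203), with 3 of 17 TCA genes rising and 0 of 8 hypoxia targets called, against 13.2% of all genes. In progenitors 4 of 16 rose, Eno1 by 1.45 (SE 0.279, adjusted p = 2.22e-03) and Bsg, the partner of the lactate carriers, by 0.67 (SE 0.155, adjusted p = 7.25e-03). There 0 of 17 TCA genes were called, and of 11 hypoxia targets 1 rose and 2 fell, against 17.5% of all genes called.

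The constructs did not move any of the 10 genes past the threshold. With the 3 construct groups combined, 0 of 10 genes were called in P2 rods, P5 rods, P2 progenitors or P5 progenitors, against 0.0%, 0.0%, 0.0135% and 0.0202% of all genes, by edgeR. At an unadjusted p under 0.05, 1, 0, 2 and 1 of the 10 members were found. Over all genes tested these were 1618 of 14786, 107 of 14786, 1357 of 14849 and 284 of 14849. DESeq2 also called 0 members in each of the 4, where it called 140, 1, 6 and 6 of all genes. The smallest p in P2 rods was that of Pkm (0.47, SE 0.213, adjusted p = 0.438) and in P2 progenitors also that of Pkm (0.69, SE 0.238, adjusted p = 0.474). In P5 rods it was Slc2a1 (0.12, SE 0.184, adjusted p = 1.0) and in P5 progenitors Pgk1 (0.28, SE 0.130, adjusted p = 1.0). Pgk1 in P5 progenitors was 210.4 to 279.8 CPM in the 6 construct libraries and 177.9 to 206.7 CPM in the 4 controls, and the 2 groups did not overlap. The share of all genes whose groups did not overlap is not given here, so this does not set Pgk1 apart from other genes. When groups were taken from the start of the cell names, Pkm was called in P2 progenitors (0.82, adjusted p = 0.044).

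Compared singly with control in rods and progenitors at each age, the 3 constructs gave 12 contrasts and 120 tests of the members, of which 0 were called, against 0.00787% of all tests. At an unadjusted p under 0.05, 11 of these 120 tests and 8172 of all 177810 tests were found. The smallest p was that of Hk2 in P5 progenitors of the combination (1.78, SE 0.5004, unadjusted p = 0.0024, adjusted p = 0.735), at 10.2 and 6.94 CPM in replicates 1 and 2 against 1.37 to 4.08 CPM in the controls. Progenitors of replicate 1 also lay below the controls for Aldoc (23.4 against 85.6 to 162.5 CPM) and Hk1 (38.4 against 48.0 to 84.2 CPM). In replicate 2 these were 94.0 and 92.8 CPM. The part of such differences between the replicates was not tested. The next smallest p-values were in the P2 MEIS2 libraries: in rods Aldoa at 1.17 (SE 0.337, adjusted p = 0.168) and Pgk1 at 0.94 (SE 0.285, adjusted p = 0.183), and in progenitors Pgk1 at 0.56 (SE 0.171, adjusted p = 0.171). Aldoa in P2 rods was 240.3 and 725.8 CPM in the 2 MEIS2 libraries and 147 to 254 CPM in controls, so that replicate 2, the library with few UMIs, a high Malat1 share and a low mitochondrial share, was high alone. The part of these in its levels was not tested. In P2 progenitors that library also held Aldoa at 670 CPM and Ldha at 658 CPM, against 152 and 154.5 CPM in replicate 1. Without replicate 2 the rod Aldoa difference was 0.21, and without replicate 1 it was 1.75. Without replicate 1 the difference of Pgk1 in rods was 1.59, and in progenitors those of Ldhb, Ldha and Aldoa were -1.27, 1.80 and 2.19. In the fits without replicate 1, MEIS2 at P2 is the shallow library alone, assumed to vary like the other groups. With both replicates DESeq2 called 5 of the 120, Pgk1 and Aldoa in P2 MEIS2 rods and Pgk1, Aldoa and Pkm in P2 MEIS2 progenitors. The share of all genes that DESeq2 called in these contrasts is not given here, so this count does not set the members apart from other genes. The plot by construct shows these values. Genes other than the smallest p of a contrast were named after their values were seen.

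**Figure D5:**
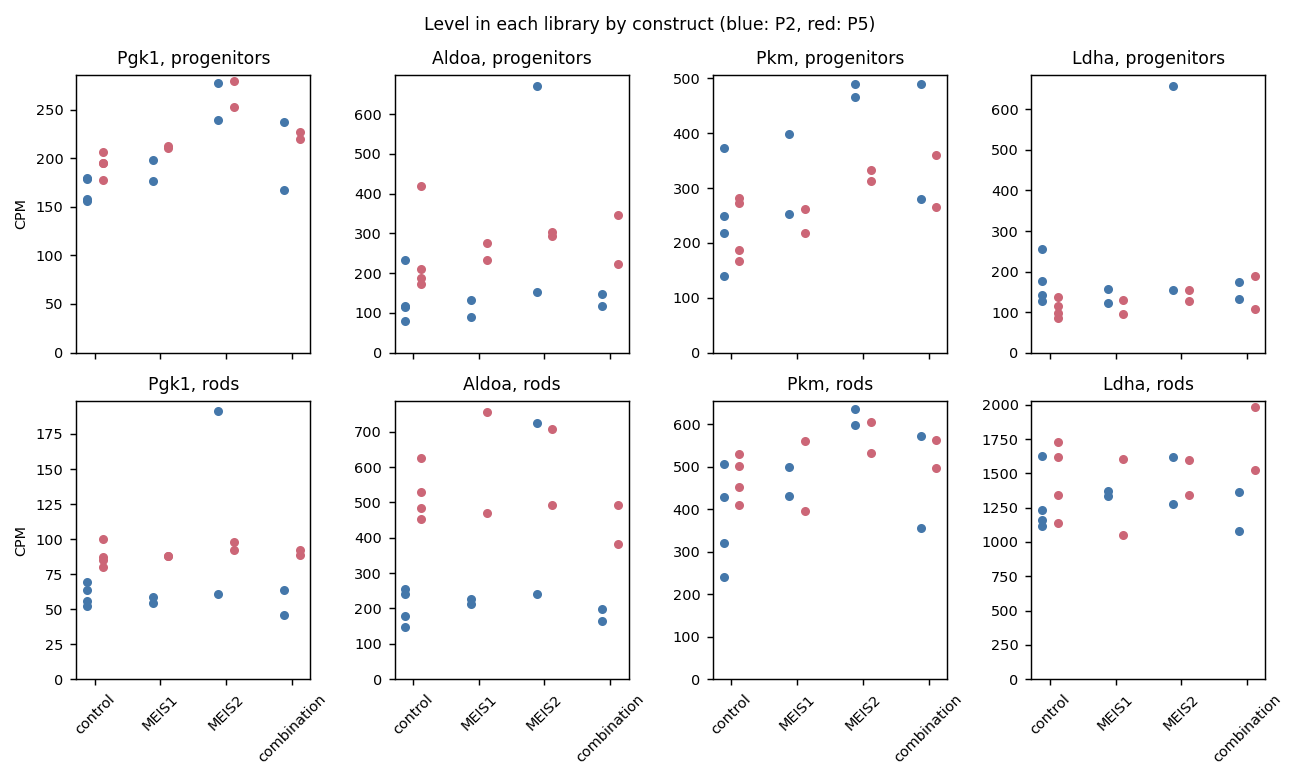
Level (CPM, linear axis from 0) of Pgk1, Aldoa, Pkm and Ldha in progenitors (top) and rods (bottom) of every library by construct, P2 in blue and P5 in red. In progenitors the highest points of Aldoa (670 CPM) and Ldha (658 CPM) belong to P2 MEIS2 replicate 2.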

How the data were processed

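Single-cell RNA was measured with 10x 3′ v3.1 chemistry, per the labels' protocols. Reads went through Cell Ranger on mm10 with an added GFP locus and then Seurat 5, per the submitters' processing notes and the series text. Raw UMI counts of every gene in every cell make up the deposited table, and the authors' description of the cells gives UMI counts, the mitochondrial percent (deposited percent) and the cell type. Cell sums equalled the deposited UMIs, and the percent matched within 0.01, in all 79009 cells. The filters on cells are not given in the sources used here.

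Counts were summed per library and type with at least 20 cells. Genes passed filterByExpr, and edgeR 4.0.16 (R 4.3.3) ran the two-sided quasi-likelihood test with TMM scaling. The threshold was 0.05 after Benjamini-Hochberg adjustment. Types were compared in controls with the library as a block, and groups within a type by 1 mean for each of 8 groups. The SE is the log2 fold change divided by the square root of the F statistic. Gene positions are from GENCODE vM21 on mm10. The scripts were tested on simulated counts. No doublet caller was run; an alternative left out the 5% of cells with the most UMIs in each library. Also tried were no low-count filter, no TMM factors, DESeq2 1.42.0, at least 50 cells, no mitochondrial genes, each library left out, no P5 replicate 1 libraries, groups from cell names, and the replicate block.

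All 10 genes are named in comparisons of types and ages. For constructs, called genes are named, or else the gene with the smallest p. The 3 genes most like each were named by correlation, and up to 4 called genes of each other list by size. The members, lists and tests were chosen with earlier results of these data known. Intervals and floors of 3 UMIs cover counting error only, and fewer cells and less RNA per cell cannot be told apart. The result of 1 progenitor marker is not reported here. Deviations of same-numbered controls from the mean of their age correlated at 0.104 to 0.262 in progenitors and 0.243 to 0.553 in amacrine cells, over 0.1 in every pair, which is the level taken as pairing. They correlated at -0.0518 to 0.449 in rods and -0.177 to 0.292 in neurogenic cells. The pairing comes from the replicate numbers of the titles and rests only on these data. Correlations of differently numbered libraries are not given here, so these values do not show that the numbers mark pairs.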

Additional observations from a re-analysis of the deposited data

Results flagged for a closer look

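The change from P2 to P5 differed between rods and progenitors for 4 genes by the test of the difference itself (edgeR's quasi-likelihood test, adjusted over all genes). The rod minus progenitor difference, P5 less P2, was 2.50 for Hk2 (adjusted p = 2.62e-04), 2.00 for Hk1 (adjusted p = 8.52e-05), -2.83 for Aldoc (adjusted p = 1.66e-04) and 0.92 for Ldha (adjusted p = 0.037), on the log2 scale. The Ldha call was lost in the fits without any 1 of P2 controls 1 to 4 or P5 controls 2 to 4, with differences from 0.77 to 0.94, and also without the low-count filter, with groups from the cell names and without the library block, and the other 3 calls held in every alternative run. Without P5 control 1 Aldoa was called as well (0.87, adjusted p = 0.0144).

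In 8 of 80 groups of 4 control libraries, 1 library lay far from the other 3, where chance alone gives about 1 in 20 groups. P5 control 1 was high in progenitors for Aldoa (418.5 CPM against 172 to 211 CPM), and in rods for Aldoc (9.13 CPM against 4.71 to 5.40 CPM) and Slc16a1 (9.20 CPM against 2.02 to 3.09 CPM). P2 control 2 was high in neurogenic cells for Hk1 (16.2 CPM against 7.57 to 9.002 CPM) and low in amacrine cells for Ldhb (183.0 CPM against 268.9 to 286.2 CPM). P5 control 2 was high in neurogenic cells for Aldoc (24.1 CPM against 6.45 to 7.83 CPM). P2 control 4 was high in amacrine cells for Ldha (458.8 CPM against 138.8 to 183.2 CPM), and P5 control 3 for Pkm (410.3 CPM against 127.1 to 150.7 CPM).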

How the results depend on the processing

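None of the called values of a single gene in the comparisons of types and ages changed sign in any alternative. Of 499 values of called results in alternatives other than leaving out a library, 28 fell short of the threshold, and of 332 with a library left out 85 did. The number of the 10 genes called moved by over 1.5 times in these cases. For cones against rods it was 4, and 1 with groups from the start of the cell name, 1 without the library (replicate) block, and 1 to 3 when a library was left out. For P5 against P2 in rods it was 2, and 4 with DESeq2, without TMM factors, with groups from the cell name and with the replicate block. Over all genes DESeq2 called 2568 there against 1949 in the main fit, and 1851 were called without TMM factors. For any construct in P2 progenitors it was 0, and 1 with groups from the cell name. For single constructs it was 0, and 5 with DESeq2. It also moved without P2 MEIS2 replicate 1, which leaves the shallow library alone in its group. Of the 9 isozyme tests 6 were called, 0 in every test with a library left out, with those 6 differences of the same sign, and 2 with the replicate block, which was added after the data were seen and allows 4 pairs no exact p under 0.125. The replicate block changed no call of the 10 genes in progenitors or amacrine cells. It added calls in rods (Slc16a1 and Aldoc) and neurogenic cells (Slc2a1), where same-numbered libraries deviated together less regularly. Over all genes DESeq2 called 192 against 52 in amacrine cells between ages (76.6% higher against 88.5%), and for any construct 140 against 0 in P2 rods (5.0% higher), 1 against 0 in P5 rods, and 6 against 2 in P2 progenitors (66.7% higher, against all) and 6 against 3 in P5 progenitors. In P5 progenitors all calls were higher without TMM factors, against 66.7%.

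Uncalled values changed sign for Ldhb in P5 against P2 rods (0.053 without TMM factors, -0.13 to 0.14 with a library left out), Ldhb in cones against rods (0.0069 without the P5 replicate 1 libraries, -0.57 to 0.0069 with a library left out), Pkm in P5 against P2 progenitors (0.021 with groups from the cell name, -0.25 to 0.15) and the Aldoc share in rods between ages (0.057 points as a mean over cells). With a library left out, values also crossed 0 for Hk1 in rods against progenitors at P5 (-0.035 to 0.40), Hk2 in rods against amacrine cells at P5 (-0.016 to 0.89), Aldoa in cones against rods (-0.095 to 0.54), Hk2 in P5 against P2 rods (-0.62 to 0.19), Pkm in neurogenic cells (-0.011 to 0.32), the Ldhb share in rods between ages (-1.33 to 0.133 points), and, for MEIS2 at P2, Pgk1 in rods (-0.0056 to 1.59) and Ldha in progenitors (-0.19 to 1.80). Without TMM factors the median of all genes moved by 0.111 at P2 and 0.162 at P5 for rods against progenitors, and no called member changed direction. The cause of these changes was not tested. Depth was low in cones (24 to 352 cells) and in P2 MEIS2 replicate 2.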
